A study of Mus musculus with 12 samples.

Results

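Acute-phase genes and the IL-6 signalling genes that act on them were described here as 10 mouse genes, namely Il6, Il6st, Osmr, Stat3, Socs3, Saa3, Lcn2, Hp, C3 and Cp. They were picked by symbol out of 55573 genes in each deposited file. All 10 were matched and all 10 were among the 14226 genes that passed the filter on low counts. Polyadenylated RNA came from cultured PB3, a mouse mammary tumour line labelled negative for ER, PR and HER2, as 12 libraries in 4 groups of 3. The lines ERI-R, PAC-R and VIN-R are resistant derivatives made by treating PB3 with eribulin (written Erubilin in the sample labels), paclitaxel or vinorelbine, each drug being listed at 300, 500 and 800 nM. Control was the untreated parental line. The labels call the derivatives resistant clones and do not say whether the drug was present at harvest or whether the numbered replicates came from cultures of their own; the spread behind each p-value is therefore that between libraries and may be technical.

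In the acute-phase response, inflammatory cytokines raise a set of secreted defence and scavenger proteins, best known from liver but also made by epithelia and macrophages. IL-6 binds its receptor and then gp130, the chain encoded by Il6st, which activates JAK kinases and the transcription factor STAT3, and STAT3 induces SOCS3, an inhibitor that shuts the receptor off. Oncostatin M uses the same gp130 chain together with its own receptor, OSMR. Macrophages are a known source of IL-6 and of interleukin-1, which acts on acute-phase genes through NF-kB and C/EBP factors, and mammary tumour cells can carry receptors for these signals.

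Each group held libraries with and without macrophage transcripts. Lyz2, a lysozyme made by macrophages and granulocytes, reached 415 and 266 CPM (a read pair count divided by the total of its library and put on one common scale) in ERI-R 1 and 2, 1271 and 506 CPM in PAC-R 1 and 2, 182 and 1271 CPM in VIN-R 1 and 2, and 698 and 290 CPM in Control 2 and 3. It was at 0 CPM in ERI-R 3, PAC-R 3, VIN-R 3 and Control 1. The same 8 and 4 libraries were parted at 100 and at 10 CPM of Lyz2. The 16 macrophage markers summed to between 810 and 5528 CPM in the 8 libraries and between 1.64 and 3.95 CPM in the 4, where 9 of the 16 were at 0 throughout. Granulocyte markers (10 genes) summed to 25.7 to 344 CPM in the 8 and 4.91 to 9.44 CPM in the 4. Hepatocyte markers (7 genes) summed to at most 0.267 CPM in any library and 4 of them were at 0 in all 12. Lymphocyte markers (8 genes) summed to at most 2.09 CPM in any library. Endothelial markers (5 genes) summed to 2.43 to 16.7 CPM in the 8 and 0.269 to 3.34 CPM in the 4. ERI-R 3 also stood apart in its composition, where ribosomal protein genes took 15.4% of counts, compared with 3.62% to 8.24% in each of the other 11, and with the lowest median fragment length, 180 bases against 187 to 206. Every group thus held 2 libraries with these transcripts and 1 without, and the 10 genes were read first with and without these transcripts inside each group and then across the groups. In bulk RNA of this kind, fewer cells of a type and less RNA per cell cannot be told apart. The division into 8 and 4 libraries was made from the data, so levels across it are given as a description, with no test.

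The stretches before the start sites of 4 of the genes are shown as examples: genes that were at or near 0 without macrophage transcripts in most groups (Il6, Saa3 and C3) and the gene of the STAT3-induced inhibitor (Socs3). Lcn2 and Hp, not shown, were also at or near 0 without these transcripts outside ERI-R. The stretches shown are RefSeq promoters on GRCm38.p6, printed 5′ to 3′ in gene direction from 250 bases before the RefSeq start. Bases that fall in an exon annotated by GENCODE M21 are left out. The windows of Socs3, Lcn2 and Osmr lie inside the gene spans given below, which reach further upstream than the RefSeq start. Capitals mark matches to TTNNGNAA (a C/EBP half-site pair), to TTCNNNGAA (the STAT palindrome) or to the kappaB consensus, searched on both strands.
Il6 promoter, chr5:30012864-30013113, strand +: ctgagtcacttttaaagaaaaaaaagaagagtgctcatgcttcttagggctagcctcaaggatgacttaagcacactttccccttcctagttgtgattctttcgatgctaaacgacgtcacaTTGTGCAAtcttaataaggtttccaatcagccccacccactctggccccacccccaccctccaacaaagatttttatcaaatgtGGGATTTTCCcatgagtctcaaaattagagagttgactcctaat
Saa3 promoter, chr7:46715701-46715926, strand -: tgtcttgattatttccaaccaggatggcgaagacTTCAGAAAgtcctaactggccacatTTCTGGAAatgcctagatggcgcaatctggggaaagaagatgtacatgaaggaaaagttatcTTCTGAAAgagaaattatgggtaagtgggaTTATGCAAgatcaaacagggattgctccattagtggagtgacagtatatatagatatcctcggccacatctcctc
C3 promoter, chr17:57228137-57228386, strand -: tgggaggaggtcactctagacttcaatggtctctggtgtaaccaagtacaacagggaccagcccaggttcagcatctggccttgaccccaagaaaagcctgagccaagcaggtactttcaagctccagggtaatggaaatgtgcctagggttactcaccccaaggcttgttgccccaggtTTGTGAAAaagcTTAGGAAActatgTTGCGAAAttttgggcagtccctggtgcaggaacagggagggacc
Socs3 promoter, chr11:117969452-117969616, strand -: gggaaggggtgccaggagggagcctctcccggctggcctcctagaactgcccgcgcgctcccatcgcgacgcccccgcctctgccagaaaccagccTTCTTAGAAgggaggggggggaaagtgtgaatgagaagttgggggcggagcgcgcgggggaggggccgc

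The Il6 stretch held 1 C/EBP match at -128 to -121 and 1 kappaB match at -44 to -35, counted from the start site. Saa3 held 4 C/EBP matches between -216 and -92, and C3 held 3 clustered between -70 and -38. Socs3 held the STAT palindrome at -154 to -146, the only match to it among the 9 genes with a listed promoter (Hp was the other gene). Lcn2, Cp and Stat3 held 1 C/EBP match each, and Il6st and Osmr had no match to any of the 3 motifs. Over 32851 promoters of the same length, 36.8% held the C/EBP letters, 7.02% the STAT letters and 7.25% the kappaB consensus. TATAAA, also searched, was found in none of the 9 stretches and in 12.4% of all promoters. No match overlapped a match to another of these motifs. A match describes letters only and not binding.

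Il6, the cytokine itself (5:30013114-30019981, GRCm38), was almost entirely a transcript of the libraries with macrophage RNA. It stood at 34.2, 21.4 and 0 CPM in ERI-R 1, 2 and 3, at 129, 46.4 and 0 CPM in PAC-R, at 12.7, 109 and 0.0748 CPM in VIN-R, and at 0.0743, 49.0 and 21.2 CPM in Control. Every library with Lyz2 lay far above every library without it, where 0 or 1 read pair was counted. In ERI-R and PAC-R the mean of the 2 libraries with macrophage RNA was at least 103-fold and at least 390-fold higher than in the library without, taking 3 counts as the floor of a library with none. Whether tumour cells contributed any of this Il6 was not measured.

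The signal-transducing receptor chains behaved differently from the cytokine. Il6st, which encodes gp130 (13:112464070-112510086), stood at 218, 125 and 33.3 CPM in ERI-R 1, 2 and 3, at 90.1, 116 and 75.6 CPM in PAC-R, at 76.3, 119 and 103 CPM in VIN-R, and at 147, 100.0 and 129 CPM in Control. Libraries with macrophage RNA, at 76.3 to 218 CPM, overlapped those without, at 33.3 to 147 CPM. The lowest value belonged to ERI-R 3 and the highest to ERI-R 1, so that 1 line spanned the whole range.

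Osmr, the oncostatin M receptor (15:6813577-6874969), separated ERI-R from every other library. It stood at 127, 98.7 and 27.0 CPM in ERI-R 1, 2 and 3, at 7.40, 7.71 and 4.42 CPM in PAC-R, at 1.68, 3.85 and 1.79 CPM in VIN-R, and at 2.90, 10.7 and 7.48 CPM in Control. The lowest ERI-R library lay above the highest of the other 9, whether or not macrophage RNA was present. The mean level was 84.2 ± 51.5 CPM in ERI-R, 6.51 ± 1.81 CPM in PAC-R, 2.44 ± 1.22 CPM in VIN-R and, in Control, 7.02 ± 3.91 CPM (SD, n = 3 each). PAC-R lay within the range of Control, and VIN-R overlapped the lower part of it.

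Stat3, the transcription factor downstream of gp130 (11:100885098-100939540), was present in all 12 libraries. It stood at 185, 141 and 151 CPM in ERI-R 1, 2 and 3, at 195, 109 and 75.7 CPM in PAC-R, at 64.4, 157 and 76.8 CPM in VIN-R, and at 83.2, 119 and 69.1 CPM in Control. All 3 ERI-R libraries lay above all 3 Control libraries, as they did for 18.3% of genes tested, while PAC-R and VIN-R overlapped Control. Stat3 overlaps Stat5a on the opposite strand, which had 8.06 to 23.3 CPM, and the strand setting of the counting is not given in the sources used here, so that reads from the shared stretch may be divided between them.

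Socs3, the feedback inhibitor (11:117966079-117970047), was present everywhere and higher wherever macrophage RNA was found. It stood at 122, 101 and 47.7 CPM in ERI-R 1, 2 and 3, at 230, 107 and 40.1 CPM in PAC-R, at 56.0, 182 and 47.8 CPM in VIN-R, and at 47.3, 133 and 52.5 CPM in Control. The 4 libraries without macrophage RNA formed a narrow band of 40.1 to 47.8 CPM, below the 52.5 to 230 CPM of the other 8. Set against the library without macrophage RNA in the same group, the mean of the other 2 was 2.34-fold higher in ERI-R, 4.20-fold in PAC-R, 2.48-fold in VIN-R and 1.96-fold in Control.

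**Figure D1:**
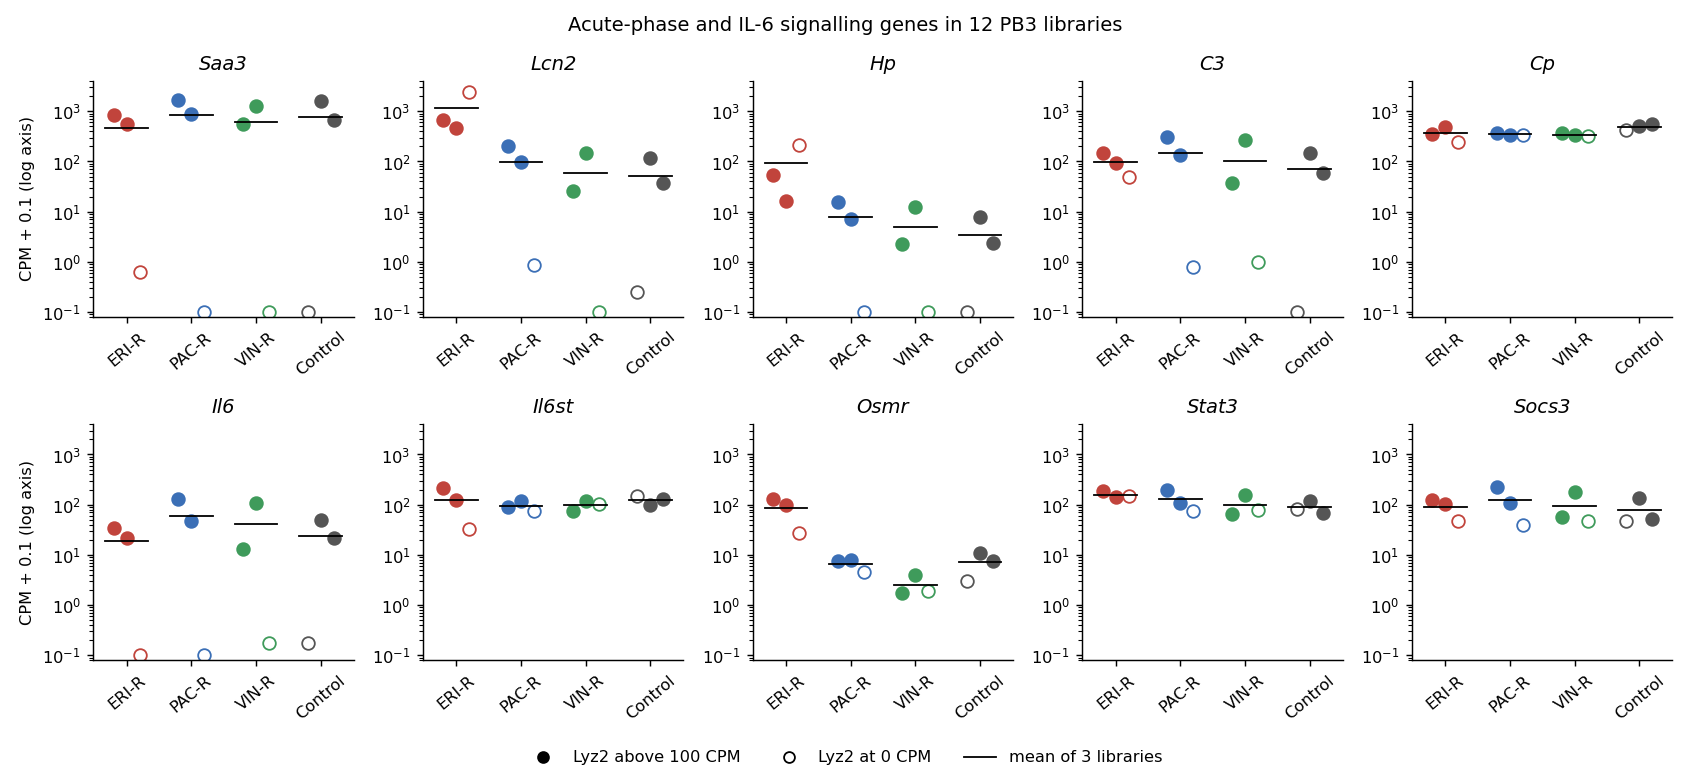
CPM of the 10 genes in each of the 12 libraries, plotted as CPM + 0.1 on a log axis, with filled points for libraries with Lyz2 above 100 CPM, open points for libraries with Lyz2 at 0 and a bar at the mean of 3 libraries. Saa3 and Il6 have open points near the bottom in all 4 groups, whereas Lcn2, Hp and C3 have an open point far above the other open points in ERI-R alone, and Osmr is highest in all 3 ERI-R libraries.

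Saa3, the serum amyloid A made outside the liver in mice (7:46711998-46715700), was the most abundant of the 10 genes where macrophage RNA was present. It stood at 830, 568 and 0.539 CPM in ERI-R 1, 2 and 3, at 1706, 872 and 0 CPM in PAC-R, at 549, 1275 and 0 CPM in VIN-R, and at 0, 1574 and 680 CPM in Control. The 8 libraries with macrophage RNA lay between 549 and 1706 CPM, and of the 4 without only ERI-R 3 had any count, with 6. The liver-type relatives Saa1 and Saa2 reached at most 0.180 and 0.628 CPM in any library. Paralogs of this family are similar in sequence, so small counts among them are uncertain.

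Lcn2, lipocalin-2, which binds iron-carrying siderophores (2:32384633-32388252), had 2 separate patterns. It stood at 665, 464 and 2425 CPM in ERI-R 1, 2 and 3, at 199, 96.8 and 0.749 CPM in PAC-R, at 25.2, 149 and 0 CPM in VIN-R, and at 0.149, 115 and 36.5 CPM in Control. Outside ERI-R it followed macrophage RNA as Saa3 did, with 0, 2 and 10 counts in the 3 libraries without it. Within ERI-R the order turned round, and the library with Lyz2 at 0 held the most.

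Hp, haptoglobin, which captures free hemoglobin (8:109575128-109579172), had the same shape at a lower level. It stood at 54.3, 16.3 and 210 CPM in ERI-R 1, 2 and 3, at 15.7, 7.12 and 0 CPM in PAC-R, at 2.18, 12.1 and 0 CPM in VIN-R, and at 0, 7.80 and 2.32 CPM in Control. No read pair was counted for it in PAC-R 3, VIN-R 3 or Control 1, and the 3 ERI-R libraries lay above the other 9.

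C3, the central complement component (17:57203970-57228136), was high with macrophage RNA in all groups and, without it, in ERI-R. It stood at 145, 92.0 and 49.5 CPM in ERI-R 1, 2 and 3, at 309, 136 and 0.674 CPM in PAC-R, at 37.3, 273 and 0.897 CPM in VIN-R, and at 0, 148 and 59.2 CPM in Control. ERI-R 3 lay within the range of the 8 libraries with macrophage RNA, and the other 3 without it were below 1 CPM.

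Cp, the copper-carrying ferroxidase ceruloplasmin (3:19957054-20009145), did not share these patterns. It stood at 355, 484 and 249 CPM in ERI-R 1, 2 and 3, at 370, 344 and 332 CPM in PAC-R, at 369, 337 and 319 CPM in VIN-R, and at 423, 497 and 570 CPM in Control. Libraries with macrophage RNA (337 to 570 CPM) and without it (249 to 423 CPM) overlapped. Every PAC-R and VIN-R library lay below every Control library, as for 5.49% of genes in PAC-R and 5.95% in VIN-R. Cp overlaps Hps3 on the opposite strand (2.69 to 33.1 CPM), and how reads from the shared stretch were divided is likewise uncertain.

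Of the 10 genes, 3 (Saa3, Il6 and Socs3) lay higher in all 8 libraries with macrophage RNA than in all 4 without, a pattern shown by 13.8% of all genes tested, and none lay lower in all 8, against 6.33% of genes. Another 3 (Lcn2, Hp and Osmr) lay higher in the 3 ERI-R libraries than in the other 9, as did 12.4% of genes. On a scale per length, the median TPM, a level per transcript length, over the 8 libraries with macrophage RNA was 3746 for Saa3, 285 for Lcn2, 202 for Cp, 79.4 for Socs3, 71.0 for Il6, 50.3 for Stat3, 48.5 for C3, 26.6 for Il6st, 13.7 for Hp and 2.62 for Osmr. Over the 4 libraries without, the medians were 0 for Saa3 and Hp, 0.85 for Lcn2, 166 for Cp, 26.2 for Socs3, 0.03 for Il6, 33.1 for Stat3, 0.72 for C3, 17.9 for Il6st and 1.44 for Osmr. Saa3 led Lcn2 in TPM in 8 of the 8 libraries with macrophage RNA. In each of these 8, Socs3 also lay above Stat3 and above C3, and Il6 lay above C3. The order of Socs3 with Il6, of Il6 with Stat3 and of Stat3 with C3 changed between libraries, so it is not set.

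ERI-R 3 allowed the ERI-R cells to be read at 0 Lyz2, beside the other 3 libraries at 0 Lyz2. Lcn2 had 27016 counts in ERI-R 3 and 12 counts in the other 3 together, a CPM ratio of 8119 (95% exact interval for counting error alone 4647 to 15715). Hp had 2344 counts against 0, which is at least 2818-fold higher with 3 counts over the 3 libraries as the floor. C3 had 551 counts against 21, a ratio of 94.6 (61.3 to 154). Transcripts of these 3 secreted proteins were thus present in an ERI-R library whose 16 macrophage markers summed to 3.95 CPM.

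The cytokine and the receptor chains differed less in that library, and in both directions. Osmr was 8.90-fold higher in ERI-R 3 than in the other 3 (7.19 to 11.1) and Stat3 1.93-fold higher (1.81 to 2.04), while Il6st stood at 0.306 of their level (0.275 to 0.341) and Cp at 0.695 (0.667 to 0.724). Socs3 had a ratio of 1.06 (0.958 to 1.17). Il6 had 0 counts in ERI-R 3 and 2 in the other 3, and Saa3 6 counts against 0, at least 7.21-fold higher. With CPM + 1, ERI-R 3 was at least 4-fold above each of the other 3 for 4 of the 10 genes (Lcn2, Hp, C3 and Osmr), as for 5.36% of genes tested, and at least 4-fold below each of them for none, compared with 7.46% of genes tested. These ratios compare single libraries, 1 of them with a high ribosomal protein share and short fragments, whose part in the ratios was not tested.

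Among the 8 libraries with macrophage RNA, levels were set against Lyz2 to see which genes kept a fixed proportion to it. Il6 held between 7.0 and 10.2 CPM per 100 CPM of Lyz2 in all 8, a 1.45-fold range, although its CPM ranged 10.1-fold over the 6 of them outside ERI-R. C3 held 34.6 to 35.1 in both ERI-R libraries and 20.4 to 26.8 in the other 6, a 1.31-fold range there against an 8.29-fold range of CPM. Per 100 CPM of Lyz2, Lcn2 stood at 160 to 175 CPM in ERI-R, compared with 11.7 to 19.1 in the other 6. Hp stood at 6.14 to 13.1 CPM in ERI-R, compared with 0.798 to 1.41 in the other 6.

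Outside ERI-R, then, Il6, C3, Lcn2 and Hp each kept to within 2-fold of a fixed proportion to Lyz2, which 3.73% of all genes tested did. Saa3 was less proportional, at 200 to 214 CPM per 100 CPM of Lyz2 in ERI-R and 100 to 302 in the other 6, and its CPM ranged 3.11-fold there. A set of 6 of the 10 genes (Lcn2, Hp, C3, Osmr, Stat3 and Il6st) were higher per Lyz2 in both ERI-R libraries than in the other 6, as were 16.1% of genes. In CPM, ERI-R 2 lay inside the range of those other 6 for C3 (92.0), Stat3 (141) and Il6st (125). Osmr stood at 30.6 to 37.2 CPM per 100 CPM of Lyz2 in ERI-R and 0.303 to 2.58 in the other 6. Both quantities of each ratio are shares of the same library total.

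**Figure D2:**
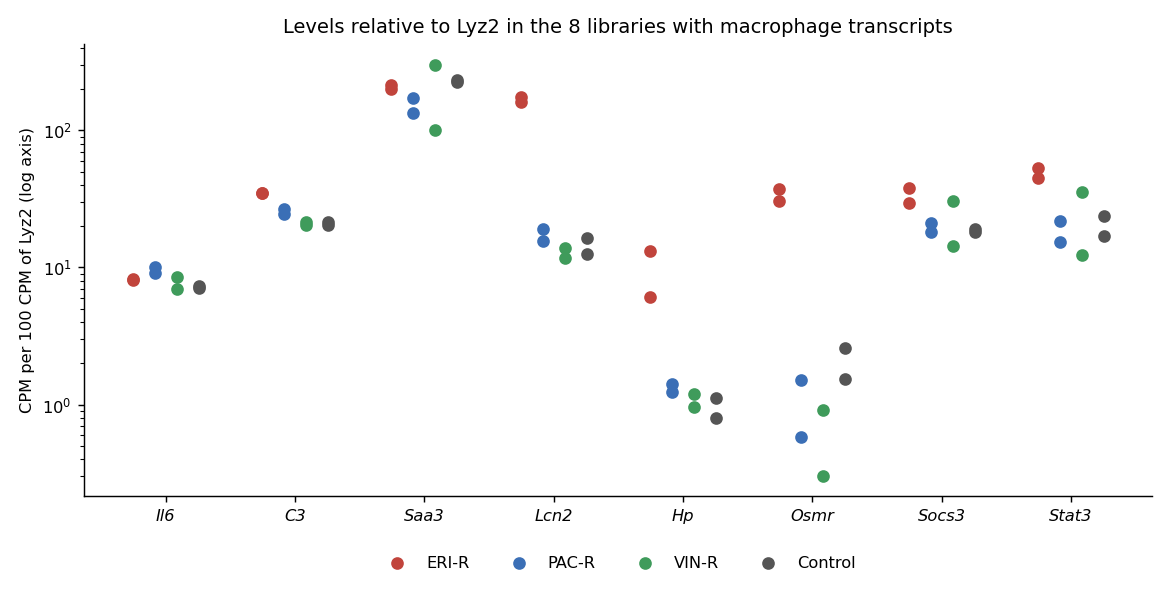
CPM per 100 CPM of Lyz2 on a log axis for 8 of the genes in the 8 libraries with macrophage transcripts, 2 libraries per group, coloured by group. Il6 lies between 7.0 and 10.2 in every group, C3 is slightly higher in ERI-R, and Lcn2, Hp and Osmr stand clear of the other 3 groups in ERI-R.

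The same was read with a score over the 16 macrophage markers (their mean log2 CPM, 4.98 to 7.81 in these 8 libraries), against the log2 CPM of each gene. Within each of the 4 groups the library with the higher score had the higher CPM of Il6, Saa3, C3, Lcn2, Hp, Stat3 and Socs3. On the log2 CPM used for r, Osmr too was higher in that library in all 4 groups. The share of all genes tested that did so was not computed, nor was the spread of r over all genes. The pattern and the r values are therefore not set apart from genes at large. Over the 8 libraries Pearson's r was 0.99 for Il6 (exact permutation p = 2.5e-05 over pairings, two-sided, the smallest these can give), with a Spearman rho of 1 (exact permutation p = 5e-05). It was 0.97 for C3 (exact permutation p = 7.4e-05, rho 0.98 with p = 0.0004), 0.95 for Socs3 (p = 0.00067, rho 0.93 with p = 0.0022) and 0.94 for Saa3 (p = 0.0011, rho 0.95 with p = 0.0011). Without the 2 libraries farthest from the median score, r was 0.99 for Il6, 0.92 for C3, 0.86 for Socs3 and 0.92 for Saa3. Stat3 had r = 0.80 (exact permutation p = 0.018, rho 0.74 with p = 0.046), which dropped to 0.58 without those 2 libraries. Over the 6 libraries outside ERI-R, whose Stat3 per Lyz2 was also lower, r was 0.98 for Stat3 (exact permutation p = 0.0042, rho 1 with p = 0.0028) and 0.96 without the 2 farthest, so the drop was seen only with ERI-R included.

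Over all 8 libraries r was 0.33 for Lcn2 (exact permutation p = 0.41), 0.45 for Hp (p = 0.27) and -0.16 for Osmr (p = 0.69). For these genes the ERI-R libraries formed a cluster of their own. After these values were seen, r was also taken over the 6 libraries outside ERI-R. There it was 0.99 for Lcn2 (exact permutation p = 0.0014, the smallest 6 libraries can give; rho 1 with p = 0.0028), 0.98 for Hp (p = 0.0014, rho 1 with p = 0.0028) and 0.49 for Osmr (p = 0.32, rho 0.54 with p = 0.30). Without the 2 farthest libraries r was 0.95 for Lcn2 and 0.96 for Hp, and it turned to -0.50 for Osmr. Over 8 libraries, Cp had r = -0.07 (exact permutation p = 0.86, rho 0.02 with p = 0.98) and Il6st r = 0.13 (p = 0.77, rho 0.12 with p = 0.79). For these, r without the 2 farthest libraries was 0.04 and 0.29. These are relations of 10 genes over the same 8 libraries, some also over the 6 outside ERI-R, with unadjusted p. The 2 libraries of 1 line are not independent of each other.

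**Figure D3:**
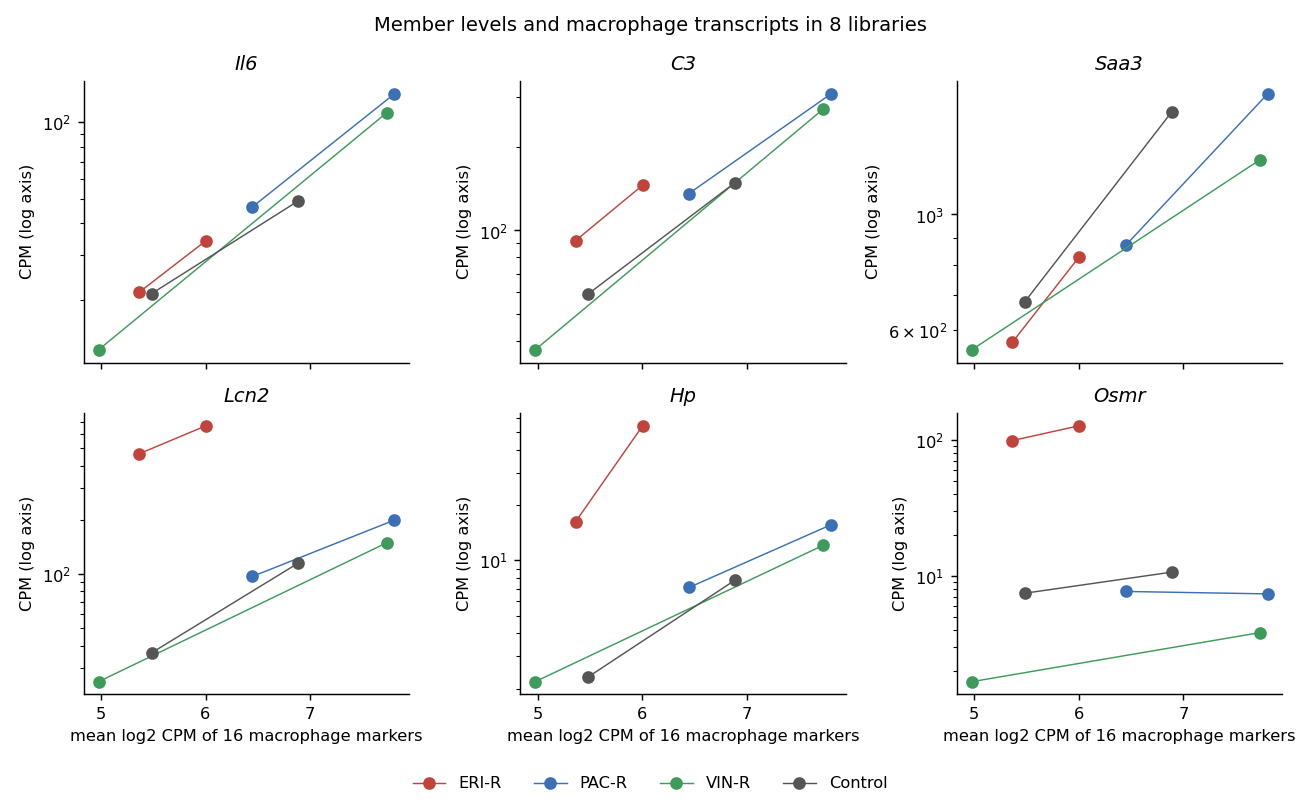
CPM on a log axis of 6 of the genes against the mean log2 CPM of 16 macrophage markers in the 8 libraries with macrophage transcripts, with the 2 libraries of each group joined. Il6 and C3 climb along nearly a single line in all groups, while for Lcn2, Hp and Osmr the ERI-R points lie above those of PAC-R, VIN-R and Control.

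The lines were then compared with the parental line and with one another, to ask which of these genes differ in drug-resistant cells. In ERI-R against Control, Osmr rose and no other of the 10 genes passed the test. Its log2 fold change was 3.43 (SE 0.64, adjusted p = 0.0039 by edgeR's quasi-likelihood test with Benjamini-Hochberg adjustment over 14226 genes), higher in 3 of 3 ERI-R libraries. In the background of that comparison 9.51% of genes were called higher and 9.69% lower, so 1 of 10 higher and 0 of 10 lower is near the share of all genes. Osmr was also higher in ERI-R than in PAC-R (3.48, SE 0.64, adjusted p = 0.0038, with 9.19% of genes called higher and 9.55% lower) and than in VIN-R (4.89, SE 0.69, adjusted p = 0.00089, with 9.55% called higher and 9.74% lower). The 3 comparisons share the ERI-R libraries, and the first shares Control with the other lines' comparisons.

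Lcn2 and Hp, although higher in all 3 ERI-R libraries, had large errors in that fit. Lcn2 had a log2 fold change of 4.64 in ERI-R against Control with an SE of 2.48 (adjusted p = 0.24), and Hp 4.91 with an SE of 2.22 (adjusted p = 0.16), by the same edgeR test. With the presence of macrophage RNA as a term in the fit, these were 9.33 (SE 3.29, adjusted p = 0.053) and 6.73 (SE 2.4, adjusted p = 0.056). In the 8 libraries with macrophage RNA alone they were 2.78 (SE 0.94, adjusted p = 0.083) and 2.67 (SE 1.02, adjusted p = 0.12), so neither gene passed the threshold in any of these fits. Without ERI-R 3, the library with the most of both, the values were 3.39 for Lcn2 (adjusted p = 0.46) and 3.28 for Hp (adjusted p = 0.40). Without ERI-R 3, Osmr stood at 3.93 (adjusted p = 0.0015). Osmr also passed in both other fits, at 3.43 (adjusted p = 0.00012) with the term and 3.51 (adjusted p = 0.00078) in the 8 libraries. With the term 14.6% of genes were called higher and 16.7% lower, and in the 8 libraries 12% and 10.7%.

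The remaining genes had log2 fold changes in ERI-R against Control of 0.76 for Stat3 (SE 0.47, adjusted p = 0.31), -0.54 for Cp (SE 0.25, adjusted p = 0.17), 0.32 for C3 (SE 2.07, adjusted p = 0.94) and 0.09 for Socs3 (SE 0.73, adjusted p = 0.96) by edgeR. Those of Saa3, Il6 and Il6st were -0.92, -0.56 and -0.15 with SEs of 2.92, 2.34 and 0.47. Among these remaining genes, C3 moved with the handling of the macrophage libraries, at 3.80 (SE 2.06, adjusted p = 0.19) with the macrophage term and 0.08 (SE 0.92, adjusted p = 0.97) in the 8 libraries.

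In PAC-R and VIN-R against Control none of the 10 genes was called, and neither was any other gene (0% called higher and 0% lower in each, by edgeR). At an unadjusted p under 0.05 there were 245 genes in PAC-R and 381 in VIN-R, and DESeq2 called 6 higher (0.0422%) and 18 lower (0.127%) in PAC-R and 13 higher (0.0914%) and 23 lower (0.162%) in VIN-R, none of them among the 10. Log2 fold changes in PAC-R against Control ran between -0.45 (Cp, SE 0.25) and 1.41 (Il6, SE 2.37). In VIN-R against Control they ran between -1.46 (Osmr, SE 0.61, unadjusted p = 0.036, adjusted p = 1) and 0.89 (Il6, SE 2.35). For Saa3, Il6, C3, Lcn2 and Hp the SE in these 2 comparisons lay between 1.93 and 2.90 log2 units, so that only very large changes could have been called. Between PAC-R and VIN-R no gene was called by edgeR (0% higher, 0% lower, 156 at an unadjusted p under 0.05; DESeq2 called 5 higher, 0.0351%, and 0 lower), and Osmr had a log2 fold change of 1.41 (SE 0.61, adjusted p = 1).

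**Figure D4:**
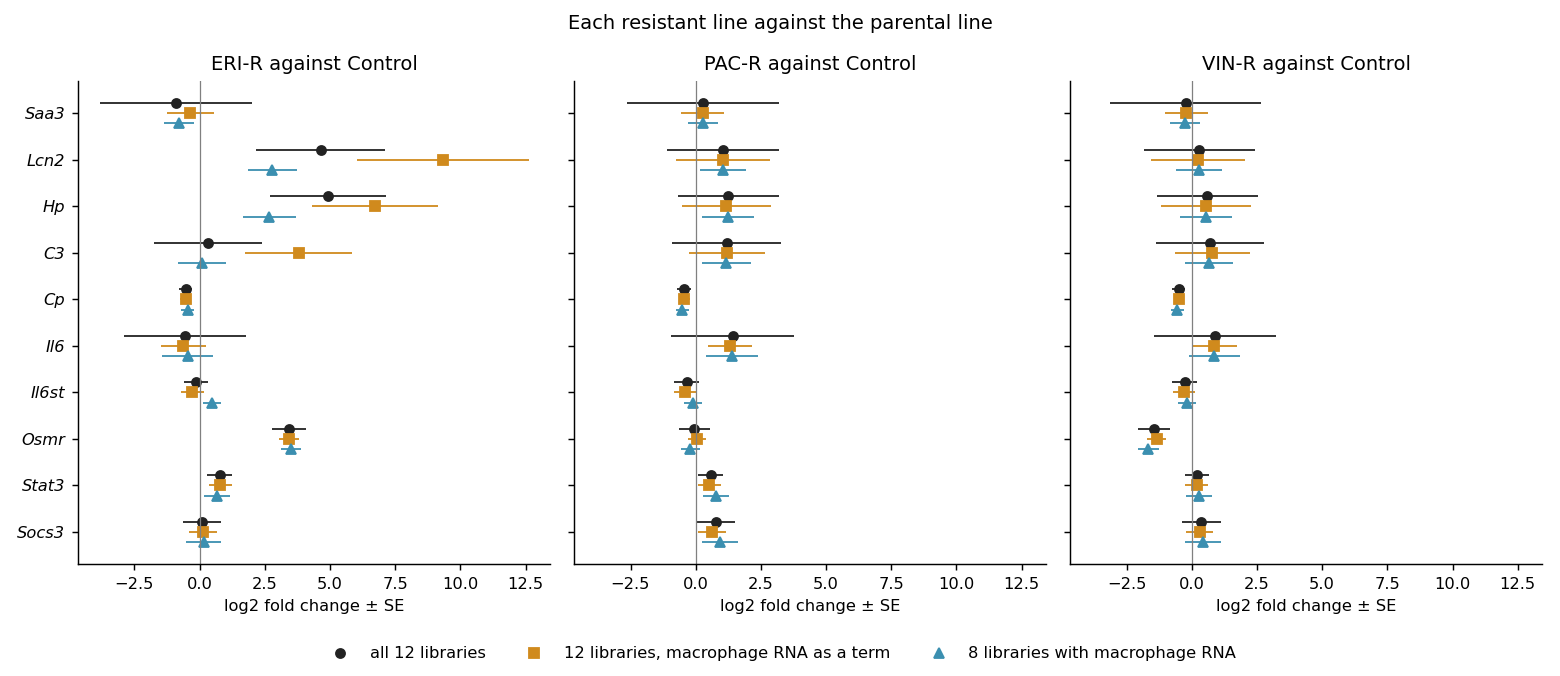
Log2 fold change ± SE of the 10 genes in ERI-R, PAC-R and VIN-R against Control, from all 12 libraries, from 12 libraries with macrophage RNA as a term and from the 8 libraries with macrophage RNA. Osmr in ERI-R lies between 3.43 and 3.51 in all 3 fits, while Lcn2, Hp and C3 move widely between fits.

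The other genes of the pathway were read from lists, each as counts called in ERI-R against Control by edgeR beside a median log2 fold change of -0.0044 over all genes tested. Of 8 receptors that partner or resemble gp130, 6 were tested, 3 rose and 1 fell, with a median of 2.4. For this and each further list, the share of all genes called in that comparison was 9.51% higher and 9.69% lower. Besides Osmr, the rises were Cntfr, the ciliary neurotrophic factor receptor, at 9.93 to 31.6 CPM in ERI-R, compared with 0 to 0.246 CPM (5 counts in all) in Control, with a log2 fold change of 7.12 (adjusted p = 0.0018), and Lifr, the leukemia inhibitory factor receptor, at 20.6 to 190 CPM in ERI-R, compared with 0.297 to 2.96 CPM in Control (5.81, adjusted p = 0.012). The call of Lifr ended without Control 3 (adjusted p = 0.055). Il6ra, the IL-6 receptor itself, fell, with 17 ± 3.67 CPM in ERI-R, compared with 35.5 ± 1.10 CPM in Control (SD, n = 3 each; -1.13, adjusted p = 0.0060). The chains for oncostatin M, leukemia inhibitory factor and ciliary neurotrophic factor were thus higher in ERI-R while the chain for IL-6 was lower, and gp130 was not called.

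The ligand list split evenly, with 2 rises and 2 falls among 10 of 11 genes tested and a median of -0.44. Ctf1, which encodes cardiotrophin-1, stood at 10.9 ± 4.86 CPM in ERI-R, compared with 1.12 ± 0.334 CPM in Control (3.30, adjusted p = 0.0031). Clcf1, another gp130 cytokine, stood at 10.4 ± 1.97 CPM in ERI-R, compared with 83.3 ± 16.6 CPM in Control (-3.05, adjusted p = 0.00051). Il11, also of this family, stood at 0.980 ± 0.420 CPM in ERI-R, compared with 7.74 ± 3.48 CPM in Control (-2.95, adjusted p = 0.0055; SD, n = 3 in each group of these comparisons).

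Inside the cell, the counts called in the fit of all 12 libraries without a macrophage term were near those shares. None of 8 JAK and STAT transducers was called higher or lower (median -0.49), with 0 higher and 2 lower under the macrophage term, where 14.6% of all genes were called higher and 16.7% lower. Of 9 inhibitors 1 rose and 1 fell (median 0.08), namely Cish at 9.91 ± 4.40 CPM in ERI-R, compared with 3.05 ± 0.154 CPM in Control (1.74, adjusted p = 0.017) and Socs2 at 52.4 ± 10.7 CPM in ERI-R, compared with 211 ± 63.7 CPM in Control (-2.05, adjusted p = 0.0046; SD, n = 3 each). Both belong to the SOCS family and are known mainly as targets of STAT5. Of 18 reported STAT3 targets 1 rose, Birc5, the survival protein survivin (1.88, adjusted p = 0.029), and 1 fell, Timp1, a metalloproteinase inhibitor, at 4.46 ± 4.05 CPM in ERI-R, compared with 83.5 ± 33.1 CPM in Control (-4.41, adjusted p = 0.0072; SD, n = 3 each). The median of those 18 was -0.72. With the macrophage term 2 rose and 7 fell, and the 7 falls were above the 16.7% of all genes called lower there. The cause of that excess was not tested. The call of Cish ended without any 1 Control library (adjusted p 0.052 to 0.062), and that of Birc5 without any 1 Control library (0.061 to 0.12) or ERI-R 3 (0.067), and in the 8 libraries with macrophage RNA (1.51, adjusted p = 0.071).

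Of 28 other acute-phase proteins 7 were tested and the rest did not pass the filter on low counts, with 7 at 0 in all 12 libraries. Of these 2 rose and 1 fell, with a median of 1.18. Lbp, the lipopolysaccharide-binding protein, stood at 63.3 ± 9.75 CPM in ERI-R, compared with 0.825 ± 0.718 CPM in Control (6.21, adjusted p = 0.00056; SD, n = 3 each). Steap4, a metalloreductase, stood at 8.98 to 155 CPM in ERI-R, compared with 0.0743 to 1.73 CPM in Control (6.14, adjusted p = 0.035), and Mt2, a metallothionein, at 0.898 to 7.33 CPM in ERI-R, compared with 7.14 to 23.9 CPM in Control (-2.26, adjusted p = 0.046). The calls of Steap4 and Mt2 each ended without several single libraries, with adjusted p up to 0.13 and 0.15. With all 12 libraries kept, that of Steap4 also ended with no filter on low counts (adjusted p = 0.091 by edgeR). That of Mt2 ended with library totals alone (adjusted p = 0.070 by edgeR).

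Iron and heme proteins, among which LCN2, HP and CP act, had 3 rises and 0 falls among 14 of 16 genes tested (median 0.51). Trf, transferrin, stood at 1228 ± 557 CPM in ERI-R, compared with 37.0 ± 12 CPM in Control (5.03, adjusted p = 0.00054; SD, n = 3 each). Slc22a17, a receptor for lipocalin-2, stood at 9.19 ± 5.74 CPM in ERI-R, compared with 1.36 ± 0.654 CPM in Control (2.81, adjusted p = 0.014; SD, n = 3 each). The call of Slc22a17 ended without Control 3 (adjusted p = 0.055). Complement genes had 0 rises and 2 falls among 13 of 18 tested (median -0.39), 1 of them in Clu, clusterin, at 60.6 ± 13.7 CPM in ERI-R, compared with 476 ± 138 CPM in Control (-2.97, adjusted p = 0.0030; SD, n = 3 each).

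Upstream signals through NF-kB, interleukin-1 and Toll-like receptors had 0 calls among 17 genes in ERI-R against Control (median -0.36). The interleukin-1 genes followed the macrophage transcripts, with Il1b at 344, 225 and 0 CPM in ERI-R 1, 2 and 3, at 848, 383 and 0 CPM in PAC-R, at 135, 617 and 0 CPM in VIN-R, and at 0, 488 and 183 CPM in Control. Il1a had 0 CPM in the same 4 libraries and 124 to 931 CPM in the other 8. In PAC-R and VIN-R against Control no gene of any of these lists was called by edgeR.

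Markers of the labelled tissue were unevenly present. The 7 mammary epithelial genes summed to 1181 to 2925 CPM in the 8 libraries with macrophage RNA and 2318 to 4877 CPM in the 4 without, and outside ERI-R nearly all of that was the simple-epithelial keratins Krt8 and Krt18 (1121 and 1159 CPM in Control 1). Epcam, an epithelial adhesion protein, stood at 195 to 278 CPM in the 3 ERI-R libraries and at 0.225 to 10.5 CPM in the other 9. Of the 7 genes, 4 rose and 0 fell in ERI-R against Control (median 4.48). The basal keratin Krt14 stood at 417 ± 331 CPM in ERI-R, compared with 2.80 ± 2.47 CPM in Control (SD, n = 3 each; 7.29, adjusted p = 0.0061 by edgeR). Krt5, its partner, had 4.27 to 10.1 CPM in ERI-R and 2 counts in all in Control (adjusted p = 0.0020 by edgeR). Krt8 and Krt18 were not called, at -0.79 (adjusted p = 0.51) and -1.19 (adjusted p = 0.30). No macrophage, granulocyte, lymphocyte, fibroblast or endothelial marker was called (16, 5, 1, 5 and 3 tested), and of 2 dendritic cell markers tested Zbtb46 rose (1.86, adjusted p = 0.0031). Fibroblast markers (6 genes) summed to 28.0 to 108 CPM with macrophage RNA and 16.3 to 27.4 CPM without, and endothelial markers (5 genes) to 2.43 to 16.7 CPM and 0.269 to 3.34 CPM. Lymphocyte markers (8 genes) reached at most 2.09 CPM. The part of these differences in the levels of the 10 genes was not tested.

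The genes most like each of the 10 were taken by Pearson's r of log2 CPM over all 12 libraries, as a description in which the split by macrophage RNA weighs heavily. The search covered tested genes with a symbol, leaving out those with Gm or Rik names. Il6 was nearest to C3ar1, Il10ra and Cd180 (r = 0.999, 0.998 and 0.998), all receptors found on macrophages. Saa3 was nearest to Clec4a1, Clec12a and Cfb (0.997, 0.995 and 0.995), a pair of myeloid lectins and complement factor B, and C3 to Bst1, Hcar2 and Fyb (0.991, 0.986 and 0.986). Lcn2 and Hp were each other's nearest gene of all those searched (r = 0.98), followed by Gdf15 for Lcn2 and Chil1 for Hp (0.975 in both). Osmr was nearest to Zfp521, Unc5c and Pof1b (0.978 in each), and Socs3 to Alas1, H2-T22 and Il4i1 (0.977, 0.975 and 0.974). Il6st and Cp were nearest to Usf3 (0.974) and Tfpi2 (0.866). Between the members, Il6 and Saa3 had r = 0.97, whereas Osmr with Il6st had 0.09 and Stat3 with Il6 0.40.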

How the data were processed

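Polyadenylated RNA of 12 PB3 libraries (200 ng input, Kapa mRNA HyperPrep kit, paired ends of 76 bases per the labels' protocols) was used, in 4 groups of 3. Per the submitters' processing notes, the tools were RSEM 1.3.2, STAR 2.7.2b, cutadapt 2.4 and bcl2fastq 2.20.0.422 and the build was GRCm38, with no roles given. For the annotation and the strandedness of counting, the entry is: not given in the sources used here. Gene-level RSEM output was deposited by the authors, per the file headers, and the expected counts in it are estimates of the read pairs from each gene, without normalization. The deposited TPM, scaled by transcript length and to a common sum by the authors, was used only to order genes by level. This was done within libraries and by medians over the 8 libraries with macrophage RNA and the 4 without.

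Totals were 11141028 to 13454395 expected counts per library, so that 3 counts, taken as the floor, equal 0.223 to 0.269 CPM. CPM are counts over the library total, without further scaling. Symbols came from the reference tables (55394 of 55573 genes). Counts were rounded, which changed 15.3% of values above 0, filtered with filterByExpr (14226 genes) and normalized with TMM. All 12 libraries entered a robust quasi-likelihood fit in edgeR 4.0.16 (R 4.3.3). Its residual degrees of freedom were 8, its prior ones 2.64 (median), and its common biological coefficient of variation was 0.591. A gene was called at an adjusted p under 0.05. The log2 CPM used for correlations carry the TMM factors and a prior count of 1. The script was tested on simulated data. DESeq2 1.42.0 was an alternative. Correlations used exact permutation tests (scipy 1.17.1), and counting intervals are exact at 95%.

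The 10 genes and the 17 further lists were chosen with earlier results of these data known. All 10 genes were named, and from each list up to 2 called rises and 2 falls by size. Il1a, Il1b, Epcam, Krt8, Krt18, Saa1 and Saa2 are named beyond that rule, chosen after their values were seen. Results for 4 further genes that these rules take are not reported here. Replicate numbers did not pair libraries throughout: same-numbered libraries of different groups had correlations of their deviations from -0.86 to 0.92 over 18 pairs. PAC-R 3 and VIN-R 3 had 0.92, and ERI-R 3 had 0.76 with PAC-R 3 and 0.67 with VIN-R 3. In each resistant line number 3 was the library without macrophage RNA, whereas in Control it was number 1. Promoters came from RefSeq (GRCm38.p6), where 9 of 10 genes were matched.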

Additional observations from a re-analysis of the deposited data

Results flagged for a closer look

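Osmr was singled out because its change in ERI-R differed from its change in both other lines. The difference from PAC-R was a log2 fold change of 3.48 (adjusted p = 0.0038 by edgeR) and that from VIN-R 4.89 (adjusted p = 0.00089), with Osmr higher in 3 of 3 ERI-R libraries than in any library of the other 2 lines. Since each line was set against the same Control libraries, these values equal the direct comparisons between the lines.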

How the results depend on the processing

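The number of the 10 genes called stayed at 1 in ERI-R against Control, PAC-R and VIN-R and at 0 in the other 3 comparisons under DESeq2, library totals alone, a looser filter (none) or stricter one (1 CPM in 3 libraries), a replicate block, the macrophage term, the 8 libraries with macrophage RNA and leaving out each library. Osmr was the gene called, at 3.10 to 3.93 in ERI-R against Control without single libraries. With the replicate block it was 3.39 (adjusted p = 0.0040), and 5 of 12 libraries correlated best with their own number. Lyz2 thresholds of 100 and 10 CPM part the same libraries, so the count of 3 genes parted by Lyz2 could not differ between them. Over the 8 libraries, 5 of the 10 relations with the macrophage score had an unadjusted exact permutation p under 0.05. The number was the same with Lyz2 alone, which is itself 1 of the 16 markers. Lcn2 and Hp, with a low p only over the 6 libraries outside ERI-R, were not among these 5. The share of all genes tested with such a p was not computed, so the 5 are not set apart from genes at large.

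Sign changes were limited to log2 fold changes that were not called, and the cause was not tested. Il6st in ERI-R against Control turned to 0.0044 with totals alone and 0.46 in the 8 libraries, and Osmr in PAC-R against Control to 0.063 with the macrophage term. With the replicate block, Saa3 and Il6 in PAC-R against Control turned to -6.94 and -2.52, and C3 and Il6 in VIN-R against Control to -0.60 and -3.08. Leaving out single libraries gave the following lowest and highest log2 fold changes: in ERI-R against Control, Saa3 -1.56 to 0.26, C3 -0.15 to 1.58, Il6 -1.28 to 0.61, Il6st -0.72 to 0.40 and Socs3 -0.15 to 0.75. The same was done in PAC-R against Control, Saa3 -0.79 to 1.46, Lcn2 -0.061 to 2.56, C3 -0.029 to 2.46, Il6 -0.020 to 2.60, Osmr -0.42 to 0.41 and Socs3 -0.078 to 1.45, and in VIN-R against Control, Saa3 -1.47 to 0.96, Lcn2 -2.02 to 1.80, Hp -1.65 to 2.19, C3 -1.88 to 1.95, Il6 -1.89 to 2.08, Stat3 -0.36 to 0.48 and Socs3 -0.59 to 1.04. With 2 libraries of macrophage RNA in each group and 1 without, removing any 1 of them moves these means, and depth limits values near 0.223 to 0.269 CPM.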
